A study of Chlorocebus sabaeus with 18 samples.

Results

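Of 12085 genes that could be judged, 85 had a mean in COS-7 cells overexpressing TRA2A of at most 0.65 times every other group mean measured. Those 85 genes are described here. Normalised values of exon bins, the non-overlapping pieces into which a gene's exons are divided, were summed per gene over single Ensembl IDs. A gene was kept when its mean with TRA2A overexpression was at most 0.65 times the lowest of the other 4 group means, and that lowest mean was 50 or more. Because the overexpression libraries chose the genes, their lower values there are a description and carry no test.

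COS-7 cells derive from African green monkey kidney, and the study concerns how RNA recruits TRA2A in the tremor and ataxia disorder FXTAS. Its 18 samples form 6 groups of 3: untreated cells (CTL), cells given 60 CGG repeats within the FMR1 leader (CGG), cells overexpressing TRA2A (GFP_TRA), cells depleted of TRA2A (siTRA), and cells with the repeat combined with depletion (CGG_siTRA) or with overexpression (CGG_TRA). All 6 groups are the same cell line, and no label names a group given an empty vector or a control siRNA. A difference from CTL therefore cannot be told apart from an effect of transfection. GFP_TRA is the only group whose name holds GFP, so an effect of TRA2A there cannot be told apart from an effect of GFP. Counts were at hand for 15 libraries and carry the letters a to c here. For CGG_TRA only the authors' splicing tables were used. The labels do not say whether the samples of a group were separate cultures, so p-values cover only the variation among the samples at hand, and 2 CGG_siTRA titles name a round that no count column carries. In bulk RNA, fewer cells that express a gene and less of its RNA per cell cannot be told apart.

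TRA2A is a serine and arginine rich protein that binds purine-rich stretches of pre-mRNA and promotes the use of nearby exons. Its level is held in check by a poison exon, whose inclusion sends the transcript to nonsense-mediated decay. A splicing factor can change the amount of a transcript as well as its form, because an exon that shifts the reading frame leads to decay. The repeat is the expanded CGG tract that lies in the 5′ leader of FMR1 in carriers of the premutation, and its RNA gathers proteins in nuclear foci.

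Totals over exon bins were 123599617 to 207475255 per library, where a read that spans several bins counts in each. Reads had been aligned to the human genome GRCh38.p10 although the cells are of the monkey, so genes carry human Ensembl IDs. No source used here pairs those IDs with names, so genes are given by their GRCh38 position, and roles, gene lists and cell type markers could not be applied. The manipulated gene was looked for by its behaviour, which makes it a weak check of the labels. Only 1 gene had a GFP_TRA mean of 2 or more times CTL together with a 2-fold or larger drop in both depleted groups, at chromosome 7, 23504780 to 23532041 (ENSG00000164548.10). Its normalised count was 17100 ± 166 in CTL, 16250 ± 701 in CGG, 204600 ± 17350 in GFP_TRA, 3914 ± 917 in siTRA and 4274 ± 220 in CGG_siTRA (SD, n = 3 each).

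The 85 genes were 0.703% of the genes judged. Their GFP_TRA means were 0.283 to 0.648 times the lowest other mean, with a median of 0.565, against a median of 1.195 over all 12085 genes. Against each group in turn, the median ratio of the 85 genes was 0.456 to CTL, 0.485 to CGG, 0.482 to siTRA and 0.469 to CGG_siTRA. Over all genes judged these medians were 1.03, 1.04, 1.07 and 1.11. In 26 of the 85 genes the GFP_TRA mean was at or below 0.5 times the lowest other mean. By the same rule turned to other groups, 121 genes were low in CTL alone, 2 in CGG alone, 11 in siTRA alone and 12 in CGG_siTRA alone. High in 1 group alone, with the ratio turned round, were 11 genes in GFP_TRA, 255 in CTL, 8 in CGG, 14 in siTRA and 2 in CGG_siTRA.

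**Figure D1:**
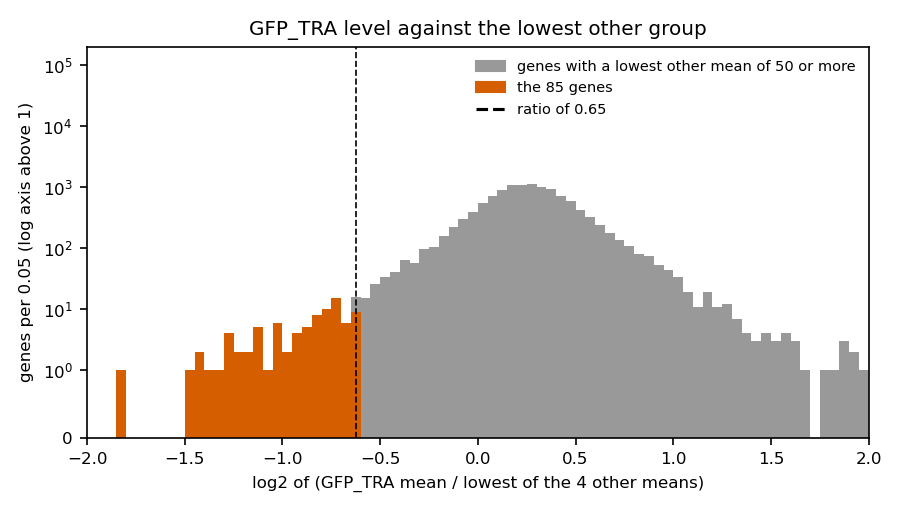
Histogram of the log2 ratio of the GFP_TRA mean to the lowest of the 4 other group means, in steps of 0.05, with the number of genes on a vertical axis that is logarithmic above 1. Grey bars hold the 12085 genes judged (those beyond 2 are not drawn) and orange bars the 85 genes at or left of the dashed line at a ratio of 0.65; they form the left tail of 1 continuous distribution and no gap separates them from the rest.

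Few of the 85 genes were counted deeply. Their CTL mean ran from 55.06 to 44860 with a median of 157.3, while the median over all genes judged was 3070. A CTL mean from 50 to under 100 was found in 24 of them, from 100 to under 200 in 22, from 200 to under 1000 in 25, and of 1000 or more in 14. Per kilobase of listed bins, the median normalised count in CTL was 45.2 for the 83 genes with a position and 735 for the 10855 judged genes with one. Gene structure differed little, with medians of 23 and 24 bins per gene, 5168 and 4964 summed bases, and spans of 40160 and 34320 bases. The spread between libraries was wider than usual in every group. In GFP_TRA the median coefficient of variation was 16.2% for the 85 genes and 6.55% for all genes judged, and in CTL it was 12.9% and 4.995%.

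All 3 GFP_TRA libraries lay below all 12 other libraries in 61 of the 85 genes, and in 24 the libraries overlapped. Over all genes judged, 314 had such a separation, or 2.60%, and since the rule chose on these values nothing is read from the count. The lowest of the other groups was CTL for 19 genes, CGG for 26, siTRA for 22 and CGG_siTRA for 18. The highest was CTL for 30, CGG for 16, siTRA for 18 and CGG_siTRA for 21. The same split over all genes judged is not given, so nothing is read from it.

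**Figure D2:**
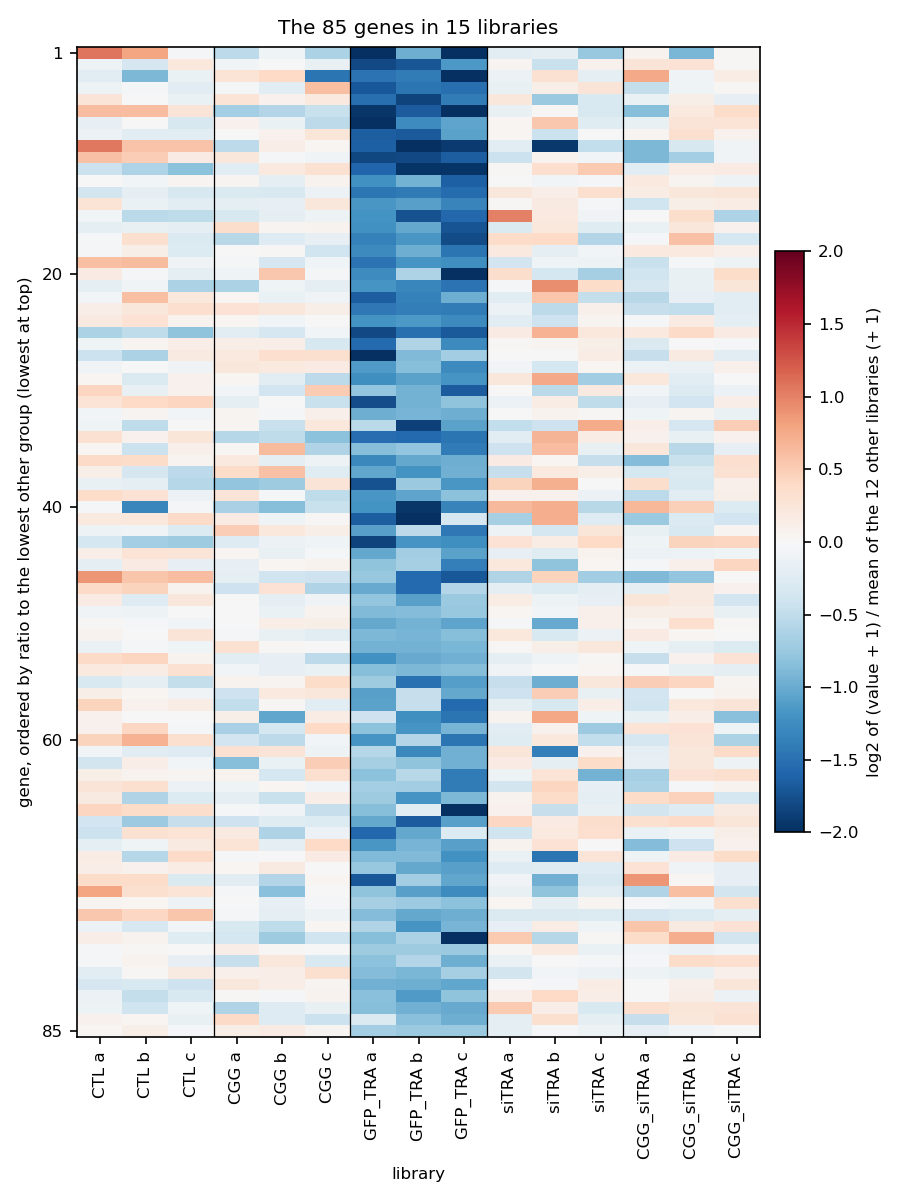
Heat map of the 85 genes (rows, ordered by their ratio to the lowest other group) in 15 libraries (columns, by group), coloured by the log2 of the normalised count plus 1 over the mean of the 12 libraries outside GFP_TRA plus 1; colours end at -2 and 2. The 3 GFP_TRA columns are blue in nearly every row, while some rows hold pale cells there or blue cells in other columns, as among the 24 genes whose libraries overlap.

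The 5 genes with the highest CTL mean hold the deepest counts of the set. At chromosome 15, 48408306 to 48645849, minus strand (ENSG00000166147.13), the normalised count was 48190, 36010 and 50360 in CTL, 43080, 37840 and 40850 in CGG, 47770, 39890 and 38260 in siTRA, and 50870, 48510 and 33010 in CGG_siTRA. In GFP_TRA it was 24900, 20170 and 25740, below each of the other 12 libraries. The 4 other group means, 40590 to 44860, overlapped in their libraries, and GFP_TRA stood at 0.582 times the lowest of them.

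The chromosome 11 gene at 111908565 to 111923722, minus strand, had the highest level of the 5 per kilobase of bins, 5796 normalised counts in CTL. Its counts were 15290, 16380 and 17700 in CTL, 17180, 16370 and 15100 in CGG, 12960, 9739 and 15010 in siTRA, and 10120, 9946 and 12090 in CGG_siTRA. GFP_TRA gave 5194, 5342 and 5299, a narrow set with an SD of 76.45 that reached 0.493 times the CGG_siTRA mean and 0.321 times the CTL mean. Its span overlaps a measured gene on the opposite strand. Whether counting used strand is not given in the sources used here, so reads of the 2 genes may be mixed.

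On chromosome 8, from 13083361 to 13559388, a minus-strand gene had 16550, 16090 and 17810 in CTL, 13900, 12940 and 13220 in CGG, 13790, 14460 and 14870 in siTRA, and 14330, 13090 and 12840 in CGG_siTRA. It had 8027, 7754 and 8015 in GFP_TRA, 0.594 times the CGG mean. Here CTL was the highest group, and each group lay above GFP_TRA without overlap. On chromosome 6, from 11183298 to 11306155, the gaps between groups were unequal. That gene had 6179, 5681 and 6272 in CTL, 4182, 3784 and 3959 in CGG, 3497, 3494 and 3549 in siTRA, 3368, 3549 and 3711 in CGG_siTRA, and 2342, 2106 and 2164 in GFP_TRA. CTL stood highest of the groups, and GFP_TRA was lowest, as the rule required.

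A chromosome X gene at 43654907 to 43746824, plus strand, showed the opposite order among the other groups. It had 5722, 5827 and 5440 in CTL, 8438, 7925 and 7545 in CGG, 7173, 7101 and 8035 in siTRA, and 7302, 7755 and 8533 in CGG_siTRA. GFP_TRA had 3718, 3694 and 3518. CTL was the lowest of the other groups here, so the ratio of 0.643 understates the distance to the 3 transfected groups.

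**Figure D3:**
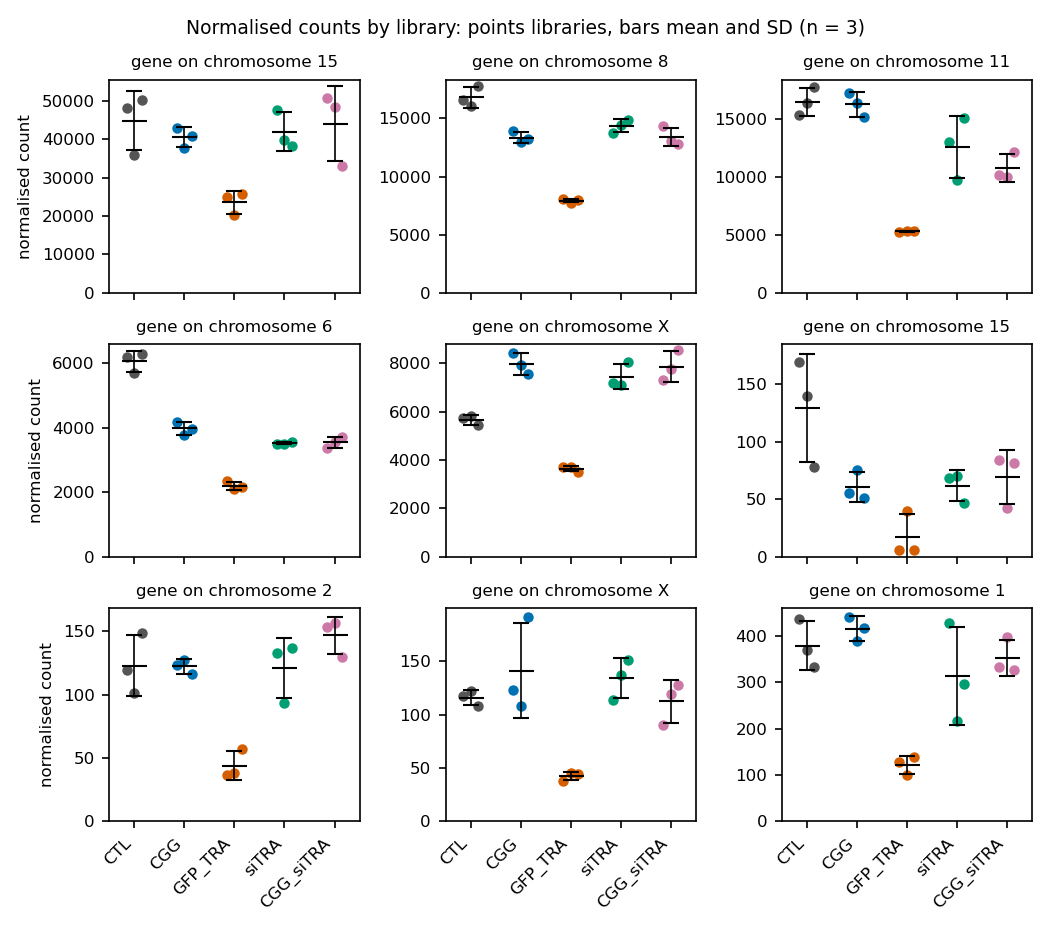
Normalised counts in each library for the 5 genes with the highest CTL mean (first 5 panels) and the 4 genes with the lowest ratio among those without overlap (last 4 panels); points are libraries, the long tick is the mean and the bars are the SD, n = 3 per group, on linear axes from 0. GFP_TRA is the lowest group in every panel, as the rule requires, while the order of the other 4 groups differs from gene to gene.

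The lowest ratios belonged to genes with few reads. At chromosome 15, 74179469 to 74202849 (ENSG00000137868.18), the ratio was 0.283, the lowest of all 12085 genes. Its normalised counts were 169.6, 139.5 and 78.06 in CTL, 55.66, 75.78 and 51.21 in CGG, 68.74, 70.27 and 46.86 in siTRA, and 84.45, 42.13 and 81.93 in CGG_siTRA. GFP_TRA gave 5.851, 40.22 and 5.609, from 6, 44 and 5 raw counts. Library b of GFP_TRA stood close to the lowest libraries of the other groups, so the size of the difference rests on libraries a and c.

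At chromosome 2, 216257865 to 216372027, the separation was wider. That gene had 119.2, 101.3 and 148.3 in CTL, 123.2, 127.4 and 116.2 in CGG, 132.8, 93.69 and 136.7 in siTRA, 153.6, 156.9 and 129.8 in CGG_siTRA, and 36.08, 38.4 and 57.21 in GFP_TRA. The 4 other groups overlapped with each other, and GFP_TRA was at 0.363 times the siTRA mean. The chromosome 15 gene at 51208057 to 51242950 had a like ratio of 0.370 but overlapping libraries: 46.81, 49.37 and 15.7 in GFP_TRA against 158.7, 173.4 and 47.14 in CGG. Its CTL libraries were 112.7, 69.73 and 120, its siTRA libraries 121.5, 162.7 and 116.2, and its CGG_siTRA libraries 223.7, 125.3 and 146.4. Only library c of CGG lay within the range of GFP_TRA.

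On chromosome X, the gene at 43766611 to 43882435, minus strand, had 38.03, 44.79 and 43.75 in GFP_TRA, a ratio of 0.376. Its other libraries ran from 89.94 to 191.8, and no group outside GFP_TRA stood apart. The chromosome 1 gene at 202193901 to 202319781 had 127.7, 100.6 and 138 in GFP_TRA, and 435.9, 369.1 and 332.7 in CTL. CGG was alike at 441.7, 389.2 and 417.8, siTRA spread from 217.3 to 427.5, and the ratio was 0.389.

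Among the next of the 20 lowest ratios, a chromosome 7 gene at 22727147 to 22732002 had 552.9, 514.1 and 511.3 in CTL and 190.2, 186.5 and 283.8 in GFP_TRA. Its ratio was 0.419 with CTL the lowest other group. A larger chromosome 7 gene, 31751179 to 32299329, had group means of 626 ± 23.7 in CTL, 621 ± 63.9 in CGG, 614 ± 10.9 in siTRA, 653 ± 67.0 in CGG_siTRA and 266 ± 61.9 in GFP_TRA (SD, n = 3 each). Its 4 other means differed by less than the SD of CGG or CGG_siTRA, though by more than the SD of CTL or siTRA. This gene was 1 of the plainest cases of a low value in GFP_TRA alone. The chromosome 9 gene at 132161676 to 132244534 was similar on a lower level, with means of 157 ± 30.7 in CTL, 156 ± 26.4 in CGG, 165 ± 13.1 in siTRA, 156 ± 30.7 in CGG_siTRA and 69.0 ± 5.71 in GFP_TRA (SD, n = 3 each).

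Others of the 20 had shallower counts. The chromosome 20 gene at 51782331 to 51802509 had 56.56, 69.48 and 49.36 in GFP_TRA and at least 104.9 in each other library. The chromosome 4 gene at 123396811 to 123403760 had 58.51, 66.74 and 40.38, with 112.1 the lowest elsewhere. Both were separated from all other libraries. The chromosome 6 gene at 41267926 to 41286719 had 19.5, 41.14 and 47.11, and the chromosome 17 gene at 41717742 to 41734644 had 32.18, 36.57 and 23.56. Their lowest other libraries were 69.09 and 55.65, so they too did not overlap. By contrast, the chromosome 22 gene at 31281594 to 31292534 had 27.31, 42.97 and 14.58 in GFP_TRA, and siTRA reached down to 41.98.

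At the boundary, the genes just inside had ratios of 0.646, at chromosome 3, 57293699 to 57544341, and 0.648, at chromosome X, 110419057 to 110456334, and at chromosome 19, 48637942 to 48646312. Just outside were genes at chromosome 22, 39901082 to 39973721, with 0.651, and on chromosome 4 at 142023160 to 142560669, with 0.652, and at 76312997 to 76412132, with 0.653. The chromosome 19 gene just inside had 344 ± 8.44 in GFP_TRA and 531 ± 27.9 in siTRA (SD, n = 3), and its libraries did not overlap. The first chromosome 4 gene just outside, with 1287 ± 64.0 in GFP_TRA and 1974 ± 205 in CGG_siTRA (SD, n = 3), was as far apart. Members and near misses therefore grade into each other.

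To see how far the choice depended on single libraries, the rule was applied to 2 GFP_TRA libraries and read in the one left out. With library a left out, 97 genes were chosen and 57 of them were at or below 0.65 in library a, where the share over all genes judged was 1.13%. With library b left out, 52 of 100 were, against 0.869%. With library c left out, 61 of 89 were, against 1.38%. The median ratio in the library left out was 0.597, 0.638 and 0.596 respectively, and the highest were 1.36, 1.24 and 1.48. The other groups' means, which set the lowest value, were the same in each case. A gene chosen because those means were high is therefore favoured in the library left out as well. The shares over all genes come mostly from genes with more counts, so they are given as a description and were not tested. More than 1 in 3 of the genes chosen on 2 libraries of a group thus exceeded the boundary in the remaining one for libraries a and b.

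Comparisons without GFP_TRA ask whether the same genes responded to depletion of TRA2A or to the repeat. They were tested in a fit over all genes, and the rule enters them because it required each of these groups to lie above GFP_TRA, which favours genes with alike means. CTL libraries serve 3 of the 5 comparisons. All 15 libraries, GFP_TRA among them, gave the estimate of the spread in this fit. With the cut-off at an adjusted p of 0.05 (edgeR's quasi-likelihood test, Benjamini-Hochberg over all genes), siTRA differed from CTL in 18 of the 85 genes, a share of 21.2% where 33.5% of the 17526 genes tested were called. Of the 18, 9 were higher, where 15.6% of all genes were, and 9 lower, where 17.9% were. CGG differed from CTL in 11, where 20.4% of all genes did, with 4 higher (9.75% of all) and 7 lower (10.7% of all). CGG_siTRA differed from CTL in 16, where 26.8% of all genes did, with 10 higher (12.7% of all) and 6 lower (14.1% of all). It differed from CGG in 5, where 8.60% of all genes did, with 4 higher (3.37% of all) and 1 lower (5.23% of all). In CGG_siTRA against siTRA, 0 of the 85 were called by edgeR and 0 by DESeq2, 7 had an unadjusted p under 0.05, and 0.0171% of all genes were called.

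In that fit over 15 libraries the share of the 85 genes called was below that of all genes in each of the 5 comparisons. Higher calls alone in CGG_siTRA vs CGG were an exception, with 4 of 85 beside 3.37%. Most of the 85 genes have few reads and a wide spread between libraries, which limits what could be called. A lower share therefore does not show a weaker response. Of the 85, 62 were called in none, as were 56.0% of all genes tested. Median log2 changes over the 85 genes were 0.03 for siTRA vs CTL, -0.02 for CGG vs CTL, 0.15 for CGG_siTRA vs CGG, 0.08 for CGG_siTRA vs siTRA and 0.11 for CGG_siTRA vs CTL. Over all genes tested they lay between 0.00 and 0.01. The counts moved with single libraries, and the share of all genes called without each library is not given here. For siTRA vs CTL 11 genes were called without CTL library a, without CTL library b or without siTRA library a. For CGG vs CTL 7 were called without CGG library b, CTL library b or CTL library c, and 5 without CGG library c. For CGG_siTRA vs CGG 2 were called without CGG library a or CGG_siTRA library b, and 8 without CGG_siTRA library a. Called under every alternative that gave a value were 9 of the 18 genes for siTRA vs CTL, 4 of 11 for CGG vs CTL, 8 of 16 for CGG_siTRA vs CTL and 1 of 5 for CGG_siTRA vs CGG. There were 12 such alternatives, and 11 for the chromosome 8 gene at 2050755, whose highest bin was too low to be fitted.

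**Figure D4:**
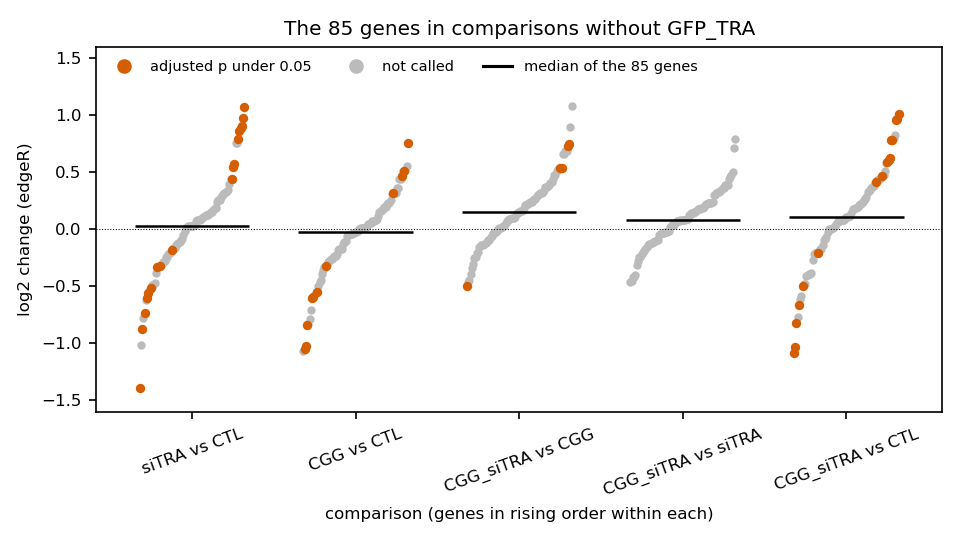
The log2 change (edgeR) of each of the 85 genes in the 5 comparisons without GFP_TRA, in rising order within each; orange points passed an adjusted p of 0.05, grey points did not, and the black line is the median of the 85 genes. Medians lie between -0.02 and 0.15, and called genes are found on both sides of 0 except in CGG_siTRA vs siTRA, where none was called.

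Some of the 85 genes were higher than CTL in both depleted groups, at a share not above that of all genes. Higher than CTL in both siTRA and CGG_siTRA were 7 of the 85, where 9.64% of all genes tested were, and 4 of the 7 were also higher in CGG. At chromosome 19, 6677841 to 6720682 (ENSG00000125730.16), the normalised count was 395.1, 428.6 and 348.3 in CTL, 688.3, 987.7 and 708.8 in siTRA, 698.7, 795.3 and 687.6 in CGG_siTRA, and 528.1, 485.7 and 589.3 in CGG. It was 174.6, 213.9 and 189.6 in GFP_TRA, whose place as the lowest group was fixed by the rule. Among the other groups, both depleted groups lay above CTL and CGG without overlap. On the log2 scale edgeR gave a rise of 1.07 (SE 0.13, adjusted p = 8.84e-06) for siTRA over CTL and of 1.01 (SE 0.13, adjusted p = 1.81e-05) for CGG_siTRA over CTL. For CGG_siTRA over CGG it gave 0.54 (SE 0.13, adjusted p = 0.0126, edgeR), and for CGG over CTL 0.47 (SE 0.13, adjusted p = 0.0173, edgeR). The last of these calls ended without CGG library c, CTL library a or CTL library c, and the one before it without CGG library a, CGG library b or CGG_siTRA library b. With the highest bin in place of the sum over bins, only the call in siTRA vs CTL remained for this gene.

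The chromosome 3 gene at 151294086 to 151316952 gave the steadiest rise with depletion. It had 296.3, 339.3 and 307.4 in CTL and 312.6, 311.2 and 351.9 in CGG, but 451, 421.6 and 481.3 in siTRA and 426.7, 448.7 and 452.9 in CGG_siTRA. GFP_TRA had 140.4, 142.6 and 131.2. The depleted groups did not overlap CTL or CGG, which overlapped each other. By edgeR, the rise on the log2 scale was 0.57 (SE 0.11, adjusted p = 0.000704) from CTL to siTRA, 0.61 (SE 0.11, adjusted p = 0.00053) from CTL to CGG_siTRA and 0.54 (SE 0.11, adjusted p = 0.00414) from CGG to CGG_siTRA. All 3 calls held under each of the 12 alternatives. This span, too, overlaps a measured gene on the opposite strand.

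A chromosome 4 gene at 99636529 to 99654648 also had its highest counts in the depleted groups, at a lower level. It had 110.6, 86.46 and 104.4 in CTL, 107.8, 121.7 and 119.5 in CGG, 193, 161.4 and 184.5 in siTRA, 181, 188.5 and 171.2 in CGG_siTRA, and 70.21, 44.79 and 67.31 in GFP_TRA. Both depleted groups lay above CTL and CGG without overlap. By edgeR it rose by 0.89 (SE 0.18, adjusted p = 0.00105) from CTL to siTRA, 0.96 (SE 0.18, adjusted p = 0.000731) from CTL to CGG_siTRA and 0.73 (SE 0.18, adjusted p = 0.0154) from CGG to CGG_siTRA on the log2 scale. The last call ended without CGG library a, CGG library c or CGG_siTRA library b. At chromosome 3, 9866714 to 9880254, counts were 262, 209.2 and 204.9 in CTL, 408.7, 373.5 and 441.3 in siTRA, 314.8, 456.1 and 450.1 in CGG_siTRA and 280.6, 310 and 314.6 in CGG. GFP_TRA had 92.64, 147.2 and 142.5. This gene rose by 0.91 (SE 0.17, adjusted p = 0.000606, edgeR) in siTRA and 0.97 (SE 0.17, adjusted p = 0.000438, edgeR) in CGG_siTRA against CTL on the log2 scale. Its CGG libraries, without depletion, also lay above all its CTL libraries. Neither CGG vs CTL nor CGG_siTRA vs CGG was called for this gene.

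Besides that chromosome 19 gene, 3 others were higher than CTL in CGG, siTRA and CGG_siTRA alike, where 5.74% of all genes were. The chromosome X gene at 43654907 rose by 0.51 (SE 0.07, adjusted p = 6.76e-05) in CGG, 0.44 (SE 0.07, adjusted p = 0.000137) in siTRA and 0.59 (SE 0.07, adjusted p = 9.71e-06) in CGG_siTRA on the log2 scale, by edgeR, and kept these calls under each alternative. Its 3 raised groups overlapped, and the change from CGG to CGG_siTRA, 0.08 on the log2 scale (SE 0.07, adjusted p = 0.599, edgeR), did not pass the test. On chromosome 8, the gene at 23841915 to 23854807 had 73.01, 64.15 and 55.62 in CTL, 84.07, 113.7 and 122.7 in CGG, 99.81, 124.9 and 141.6 in siTRA, 84.45, 109.5 and 110.5 in CGG_siTRA, and 32.18, 24.68 and 24.68 in GFP_TRA. It rose by 0.98 (SE 0.22, adjusted p = 0.002) in siTRA, 0.78 (SE 0.22, adjusted p = 0.0125) in CGG_siTRA and 0.76 (SE 0.22, adjusted p = 0.019) in CGG, by edgeR. The rise in siTRA held under each alternative; that in CGG ended without CGG library b or c or CTL library b or c, and that in CGG_siTRA without CTL library c. The fourth gene, at chromosome 9, 76611377 to 76906087, was named after its values were seen. It had 4894, 3801 and 4287 in CTL, 5367, 5127 and 5551 in CGG, 5695, 6946 and 5791 in siTRA, 5268, 5795 and 4898 in CGG_siTRA and 2954, 2400 and 3013 in GFP_TRA. By edgeR it rose by 0.55 (SE 0.10, adjusted p = 0.000517) in siTRA, 0.42 (SE 0.10, adjusted p = 0.00603) in CGG_siTRA and 0.32 (SE 0.10, adjusted p = 0.0349) in CGG on the log2 scale. The call in CGG ended with the highest bin and without any of the CGG libraries or CTL library b or c.

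A further rise in siTRA was called only with particular libraries included. The chromosome 19 gene at 45467996 to 45475179 had 829.9, 595.9 and 608.9 in CTL and 1742, 985.1 and 819.1 in siTRA, so siTRA library c lay within the CTL range. This rise was 0.86 on the log2 scale (SE 0.26, adjusted p = 0.0164, edgeR). Without siTRA library a it was not called, nor without CTL library b or c. GFP_TRA had 375.4, 256.9 and 291.7, and this span also overlaps a measured gene on the opposite strand.

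Lower than CTL in both depleted groups were 6 of the 85 genes, where 11.4% of all genes tested were, and 3 of these were also lower in CGG, where 6.74% were lower in all 3. In these genes CTL stood highest of the groups, and GFP_TRA was lowest by the rule. The chromosome 6 gene at 11183298 fell by 0.73 (SE 0.07, adjusted p = 4.58e-07) in siTRA, 0.66 (SE 0.07, adjusted p = 2.04e-06) in CGG_siTRA and 0.59 (SE 0.07, adjusted p = 1e-05) in CGG on the log2 scale, by edgeR. These calls held under each of the 12 alternatives. The chromosome 8 gene at 13083361 changed less, by -0.32 (SE 0.07, adjusted p = 0.00231) in CGG, -0.21 (SE 0.07, adjusted p = 0.0266) in CGG_siTRA and -0.18 (SE 0.07, adjusted p = 0.0481) in siTRA, by edgeR. Only its call in CGG held under each alternative. Each of the other 2 ended without CTL library a or c among others, and with the GFP_TRA libraries left out of the fit.

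The largest fall was at chromosome 8, 2050755 to 2145438. It had 181.4, 130.2 and 129.8 in CTL, 60.39, 95.3 and 89.41 in CGG, 74.39, 22.12 and 61.51 in siTRA, 46.07, 69.52 and 82.85 in CGG_siTRA, and 27.31, 16.46 and 22.44 in GFP_TRA. All 12 transfected libraries lay below CTL, and siTRA library b lay within the GFP_TRA range. By edgeR it was -1.39 (SE 0.34, adjusted p = 0.00436) from CTL to siTRA and -1.03 (SE 0.33, adjusted p = 0.0294) from CTL to CGG_siTRA on the log2 scale. The second call ended without CGG_siTRA library a or b or CTL library a or c. At chromosome 17, 4740015 to 4746113, counts were 133.1, 105.1 and 110.3 in CTL, 62.76, 53.97 and 53.65 in CGG, 47.08, 97.6 and 43.93 in siTRA, 38.39, 41.08 and 71.8 in CGG_siTRA and 41.93, 23.77 and 21.31 in GFP_TRA. GFP_TRA library a overlapped CGG_siTRA. This gene fell by 1.08 (SE 0.31, adjusted p = 0.016) in CGG_siTRA, 1.02 (SE 0.31, adjusted p = 0.0278) in CGG and 0.87 (SE 0.31, adjusted p = 0.0405) in siTRA on the log2 scale, by edgeR, and each of the 3 calls ended without CTL library a among others.

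The chromosome 1 gene at 11189341 to 11195981 had 977, 915.7 and 726.9 in CTL, 760.2, 641.8 and 622.6 in CGG, 484, 679.3 and 623.9 in siTRA, 346.6, 404.5 and 621.4 in CGG_siTRA, and 183.3, 185.6 and 207.5 in GFP_TRA. Its ratio of GFP_TRA to CTL was 0.220, and its span overlaps a measured gene on the opposite strand. It fell by 0.82 (SE 0.17, adjusted p = 0.00168, edgeR) in CGG_siTRA against CTL on the log2 scale under each alternative, and by 0.51 (SE 0.17, adjusted p = 0.0285, edgeR) in siTRA, which was lost without CTL library a or b or siTRA library a. For the chromosome 11 gene at 111908565, the log2 changes were -0.50 (SE 0.12, adjusted p = 0.00557, edgeR) in CGG_siTRA vs CTL, held under each alternative, and -0.01 (SE 0.12, adjusted p = 0.98, edgeR) in CGG vs CTL. In siTRA vs CTL its change of -0.33 (SE 0.12, adjusted p = 0.047, edgeR) ended without any of the CTL libraries or without siTRA library a or b. That call also ended with the GFP_TRA libraries left out of the fit and with the compared groups alone. From CGG to CGG_siTRA the change was -0.50 (SE 0.12, adjusted p = 0.0158, edgeR). This call ended with the highest bin and without CGG library a or b or CGG_siTRA library a or b. From siTRA to CGG_siTRA the change was -0.17 (SE 0.12, adjusted p = 0.475, edgeR), which did not pass.

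A pair of genes had fewer counts in CGG than in CTL, the first of them in siTRA as well. On chromosome 1, at 12567910 to 12617731, counts were 824.6, 830.2 and 642 in CTL, 336.3, 359.4 and 395 in CGG, 486.8, 549.1 and 430.6 in siTRA, 297.2, 620.4 and 695.9 in CGG_siTRA, and 138.5, 169.1 and 133.5 in GFP_TRA. From CTL to CGG it fell by 1.05 on the log2 scale (SE 0.21, adjusted p = 0.00167, edgeR), which held under each alternative. From CTL to siTRA it fell by 0.60 (SE 0.21, adjusted p = 0.034, edgeR), with no overlap of libraries, a call that ended with the highest bin and without CTL library a or b or siTRA library a or c. On chromosome 6, at 106086320 to 106109938, counts were 262, 225 and 250.8 in CTL, 142.1, 148.1 and 119.5 in CGG, 180.8, 340.9 and 234.3 in siTRA, 225.9, 190.7 and 224.6 in CGG_siTRA, and 73.14, 71.31 and 76.28 in GFP_TRA. CGG lay below each library of CTL and of both depleted groups. It fell by 0.84 (SE 0.18, adjusted p = 0.00297, edgeR) in CGG vs CTL on the log2 scale and rose by 0.75 (SE 0.18, adjusted p = 0.0133, edgeR) in CGG_siTRA vs CGG, the second call ending without CGG library c. With the highest bin in place of the sum, neither change was called. A further gene, on chromosome 2 at 215611563 to 215843722, had 286.7, 291.9 and 178.6 in CTL, 182.4, 149.3 and 177.2 in CGG, 145, 177 and 174.8 in siTRA, 138.2, 185.4 and 174.9 in CGG_siTRA, and 67.29, 82.28 and 79.65 in GFP_TRA. Its falls of 0.55 (SE 0.18, adjusted p = 0.0417) in CGG and 0.56 (SE 0.18, adjusted p = 0.0268) in siTRA against CTL on the log2 scale, by edgeR, both ended without CTL library a or b among others, and CTL library c overlapped CGG. The fall in CGG also ended with the GFP_TRA libraries left out of the fit. The last of the 7 genes lower in CGG than in CTL lay on chromosome X at 66164267 to 66268867. It changed by -0.60 on the log2 scale (adjusted p = 0.0113, edgeR). Its call ended with the highest bin and without CGG library c or CTL library b.

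Most exon bins of these genes were low, though not all bins of each gene. Of the 85 genes, 65 had at least 1 exon bin with a mean of 10 or more over the 15 libraries, 707 bins in all, and 18 genes with a position had none. In 612 of those bins, or 86.6%, the GFP_TRA mean was at most 0.65 times the CTL mean, against 6.03% of the 208238 such bins of all genes judged. As the rule chose on the sum of these bins, the count is a description. The median bin ratio was 0.498 for the 85 genes and 1.001 for all genes judged. When each span was cut into 3 equal parts from its 5′ end, medians were 0.442 over 129 bins of 38 genes, 0.517 over 153 bins of 32 genes and 0.497 over 425 bins of 58 genes, so the parts hold different genes. Of 36 genes with 5 or more such bins, 16 had all of them at or below 0.65, and 35 had more than 1 in 2. The chromosome X gene at 43654907 had 10 of 18, and the chromosome 9 gene at 76611377 had 18 of 34. In the chromosome 19 gene at 45467996, 16 of 22 were low and ratios ran from 0.190 to 0.820.

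Some bins within otherwise low genes were not low, and those given here held few counts. In the chromosome 15 gene at 48408306, 72 of 75 bins were low, and the 3 exceptions lay at its 5′ end: 48644833 to 48644950 at 0.900 times CTL, 48645575 to 48645709 at 0.884 and 48645710 to 48645721 at 1.12. In the chromosome 11 gene at 111908565, 16 of 19 were low. The 3 that were not adjoin each other, from 111911817 to 111911922, with 0.824, 0.897 and 1.09 times CTL. Their CTL means were 36.18, 41.23 and 12.26, against 2282 in the bin beside them at 111911524 to 111911816. A single bin of the chromosome 10 gene at 48446037 to 48656265, from 48450261 to 48451140, was at 1.15 times CTL. In the remaining 62 genes with such bins, none reached the CTL mean. The 3 bins above the CTL mean lay near the minimum of 10, and each difference was smaller than the SD in GFP_TRA. Means in CTL and GFP_TRA were 10.1 ± 2.77 and 11.35 ± 5.68 on chromosome 15. They were 12.26 ± 1.62 and 13.35 ± 8.2 on chromosome 11, and 10.61 ± 1.26 and 12.17 ± 4.21 on chromosome 10 (SD, n = 3 each).

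**Figure D5:**
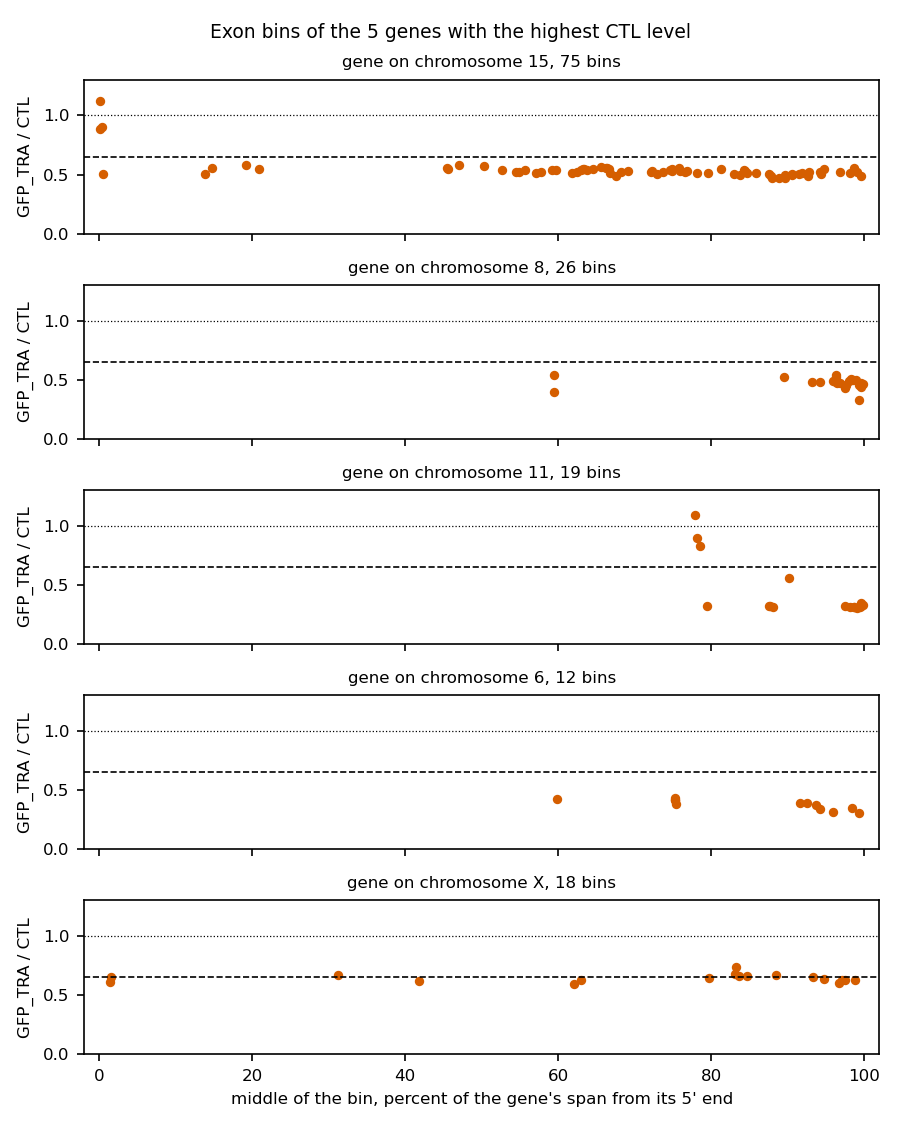
Ratio of the GFP_TRA to the CTL mean in each exon bin (points) of the 5 genes with the highest CTL mean, against the middle of the bin in percent of the gene's span from its 5′ end; the dotted line is a ratio of 1 and the dashed line a ratio of 0.65. Points at or above 0.8 are 3 bins at the 5′ end of the chromosome 15 gene and 3 adjoining bins of the chromosome 11 gene, the bins of the chromosome 6 gene run from 0.300 to 0.434, and those of the chromosome X gene lie on both sides of 0.65.

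Relative bin use sets a bin against the rest of its gene, and was taken from the authors' deposited tables. Most of the 85 genes have few reads, so a low number of calls does not show that their bin use was unchanged. For CTL vs GFP_TRA, 4 of 1376 bins of the 85 genes had an adjusted p under 0.05 in the authors' deposited table, where 1.32% of all bins did. Those 4 included 111911817 and 111911818 to 111911918 of the chromosome 11 gene, with log2 values of -1.36 (adjusted p = 0.00849) and -1.49 (adjusted p = 0.0245), CTL over GFP_TRA, in the authors' deposited table. The other 2 were bins of few counts, with log2 values of -2.80 (adjusted p = 0.0147) at chromosome 17, 18179223 to 18179799, and 13.37 (adjusted p = 0.0293) at the single base 2947575 of chromosome 7, in the authors' deposited table. Their normalised means were 0.716 ± 1.24 in CTL and 3.78 ± 1.89 in GFP_TRA for the first (SD, n = 3). The second had 5.88 ± 3.44 in CTL (SD, n = 3) and was listed at 0 in all 3 GFP_TRA libraries. For CGG_siTRA vs CGG the authors' deposited table called 10 of 910 bins, against 3.34% of all bins, and 7 of the 10 lay in the chromosome 11 gene. For CGG vs CTL it called 2 of 1237 (2.0% of all bins), for CTL vs siTRA 4 of 1179 (1.83%), for CGG_siTRA vs CTL 6 of 996 (3.87%) and for GFP_TRA vs siTRA 1 of 1326 (0.595%), all in the authors' deposited tables. Each share of the 85 genes was below that of all bins.

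The authors' deposited splicing tables held 6311 events in 3403 genes, and for most of the 85 genes they listed none to judge. They held 1 event each for 2 of the 85. One was an alternative 3′ splice site at chromosome 9, 76644909 to 76652483, and the other an alternative last exon at chromosome 8, 13115657 to 13276534, in the gene at 13083361. Neither had a p under 0.05 in any of the 5 authors' deposited tables, where 7.68% of all events did in CGG vs CTL, 8.18% in GFPTRA vs CTL, 8.13% in CGGTRA vs CGG, 8.87% in CGGTRA vs CGGsiTRA and 6.31% in CGGsiTRA vs siTRA. The change in percent spliced in, given as a fraction in the authors' deposited tables, was -0.031 for the last exon and 0.023 for the splice site in GFPTRA vs CTL. In CGGTRA vs CGG, which holds libraries the rule did not use, the authors' deposited table gave 0.003 and 0.024. The lowest p was 0.0969, for the last exon in CGGsiTRA vs siTRA, in the authors' deposited table.

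By position, the 83 placed genes lay on 22 chromosomes, with 9 on chromosome 7, 7 each on chromosomes 1 and 19, and 6 each on chromosomes 2 and 15. On the plus strand were 33 and on the minus strand 50. A span overlapping a measured gene on the opposite strand was found for 10 of them. The same counts by chromosome, strand and overlap over all placed genes are not given, so no excess is read from them. The nearest measured gene with a lowest mean of 50 or more was itself among the 85 only for the chromosome X pair at 43654907 to 43746824 and 43766611 to 43882435, which lie 19787 bases apart on opposite strands. Over the 83 genes, the nearest neighbour had a median ratio of GFP_TRA to its lowest other group of 1.10, against 1.19 over all 10855 placed genes, and the median gap was 17760 against 7858 bases. Apart from that pair, 19 of the 83 neighbours had a ratio under 1 but above 0.65, so that GFP_TRA was their lowest group as well. Over all placed genes, 1310 of 10855 had such a neighbour.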

How the data were processed

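RNA from COS-7 cells was sequenced from ribosomal-RNA-depleted libraries, per the labels' protocols. Reads were processed with cutadapt 1.14 and STAR 2.5.2 on GRCh38.p10, per the submitters' processing notes, which also list DESeq2 without a role. The authors deposited normalised counts per exon bin, a signal scaled by 1 factor per library, and DEXSeq tables with raw counts, p-values and log2 fold changes, per the file headers. The deposited mean, dispersion and fitted-use columns of those tables are scores that the authors' DEXSeq run wrote, and none is printed. Their EventPointer tables, as deposited, hold p-values and changes in percent spliced in as a fraction; the direction is not stated.

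Multiplying the deposited normalised signal by the library's factor gave whole numbers (tolerance 0.1) in 100.0% of the values. These equalled the deposited counts in all 14640744 cells listed in both. The plan was edgeR on the DEXSeq counts; the recovered reads were used instead because they cover every bin. Bins were summed per gene, leaving out 2209 groups of overlapping genes from the rule, which left 52560 single IDs. Bins without a position took 1.56% to 2.10% of the reads per library. Names were looked up in the reference table, where 0 single IDs matched, so gene lists and markers could not be applied and no sequence is given. The 3 CGG_TRA samples have no count column here.

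A fit of 5 group means over 15 libraries was tested by edgeR's quasi-likelihood method (version 4.0.16, R 4.3.3, TMM, Benjamini-Hochberg adjusted p under 0.05). It covered the 17526 genes or groups that reached 10 normalised counts in 3 libraries, all 85 genes among them. DESeq2 1.42.0 was an alternative. Simulated counts for siTRA vs CTL (17526 genes, 200 changed) gave 151 calls, 7 of them false. Recovered were 73% of 1.5-fold and 71% of 2-fold changes. The changed genes were drawn from all genes tested, so these shares do not give the recovery for the 85 genes, most of which have few reads. Spread was set by a trend over genes and not gene by gene. With 200 genes changed, beside 5875 called in the data, the false calls do not give the error of the real comparison. Named are the 20 genes with the lowest ratio, the 5 with the highest CTL mean, 3 on each side of the boundary, and up to 3 rises and 3 falls per comparison; a few others serve as examples. The genes and lists were chosen with earlier results of these data known.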

Additional observations from a re-analysis of the deposited data

Results flagged for a closer look

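At chromosome 2, 54723499 to 54972018, the libraries with TRA2A depleted lay on opposite sides of their comparison group without and with the repeat. Its normalised counts were 376.8, 402.5 and 387.4 in CTL and 421.8, 446.3 and 481.3 in siTRA, where each library was higher and the means differed by 60.92. They were 512.7, 420.2 and 416.2 in CGG and 387.2, 362.3 and 343.4 in CGG_siTRA, where each library was lower and the means differed by -85.42. Neither comparison passed edgeR's test over all genes, with a log2 change of 0.26 (SE 0.11, adjusted p = 0.0873) for siTRA vs CTL and -0.20 (SE 0.11, adjusted p = 0.341) for CGG_siTRA vs CGG. The difference between these contrasts was not tested. In GFP_TRA the counts were 213.6, 213 and 218.7.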

How the results depend on the processing

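No paired analysis was possible because the library numbers in the count columns do not match the numbering in the sample titles, and the fit with a replicate block was not run. The number of genes in the set was 26 at a ratio of at most 0.5, 32 at a lowest other mean of 200 or more, and 30 with the highest bin per gene, of which 26 were shared with the 85. With TMM-scaled counts it was 109, which included all 85. Leaving out a GFP_TRA library gave 89 to 100 genes. Under these settings the median ratio was 0.441, 0.584, 0.595, 0.569 and 0.552 to 0.568. Of the 85 genes, the number called with 1 library left out was 11 to 19 for siTRA vs CTL, 5 to 8 for CGG vs CTL, 2 to 8 for CGG_siTRA vs CGG, 0 in each case for CGG_siTRA vs siTRA and 11 to 17 for CGG_siTRA vs CTL. With the compared groups alone, CGG vs CTL gave 26. For CGG_siTRA vs CGG, DESeq2 gave 11, the highest bin 2 and no filter on low counts 12. With no filter, CGG_siTRA vs siTRA gave 3, and with the highest bin, CGG_siTRA vs CTL gave 10. Shares of all genes called in these runs are not given. Whether the share of the 85 genes stayed below that of all genes in them is therefore not known here. No call of the report changed sign under an alternative run; the causes of these shifts were not tested. Most of the 85 genes have few reads, which limits the size of change that could be detected.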
